A study of Homo sapiens with 5 samples.

Results

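The genes described are 42 members of the interferon response and of class I antigen presentation, chosen by symbol from a fixed list and all found among the 26506 genes of the deposited tables. RNA came from the human prostate cancer line 22Rv1, an established line grown with 10% serum, and was collected 72 hours after lentivirus was added. ESM1 encodes a secreted proteoglycan, also called endocan. Cells overexpressing ESM1 are compared with the control culture Vector-1, and cells overexpressing ESM1-NLS or ESM1-NES with the control culture Vector-2. By their usual meaning NLS is a nuclear localisation signal and NES a nuclear export signal, which the labels leave unexplained. Each of the 5 groups is 1 library, so differences between groups could not be set against replicate spread, and p-values are not reported. All 5 cultures received lentivirus, itself an RNA virus, so a response to virus that all cultures share cannot be told apart from the state of 22Rv1 cells.

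The interferon system links detection of foreign nucleic acid to an antiviral state. RIG-I-like receptors bind viral RNA in the cytosol and signal through MAVS to IRF3 and IRF7, which switch on interferon genes. Secreted type I interferon binds IFNAR1 and IFNAR2, the kinases JAK1 and TYK2 become active, and STAT2 and IRF9 act in a complex on the interferon-stimulated response element of target promoters. Targets include the IFIT, IFITM, OAS and MX antiviral proteins and the genes that load and display peptides on HLA class I molecules.

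Expected read counts summed to 19975113 for the NLS form, 18447256 for the NES form and 24322216 for Vector-2. For ESM1 and Vector-1, whose table holds FPKM alone, depth was estimated at 13963427 and 15339659 reads. FPKM counts fragments scaled by transcript length and library size, a level per length, so genes can be compared with each other. ESM1 itself measured 2437 FPKM in its own culture, 2627 FPKM with the NLS form and 3431 FPKM with the NES form, against 0 FPKM in both vectors. All 9 markers of luminal prostate epithelium were at 1 FPKM or more in every library. Of 10 leukocyte markers only CD68 reached 1 FPKM in every library, and their summed level ran between 3.94 and 6.52 FPKM. Their highest sum was in ESM1-NLS, with 6.52 FPKM against 4.20 FPKM in Vector-2, and its part in the results was not tested. Summed endothelial markers stayed at 0.09 FPKM or less and fibroblast markers at 4.70 FPKM or less. In bulk RNA, fewer cells of a type and less RNA per cell cannot be told apart.

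The pathway was transcribed unevenly in 22Rv1 cells, and most of its genes kept to the same side of 1 FPKM in all 5 libraries. Of the 42 genes, 30 were at 1 FPKM or more in every library, 9 stayed under 1 FPKM in every library and 3 lay on either side of it. Most signalling components, ISG15, USP18, the IFITM family and the class I genes were among the 30. The IFIT1, IFIT2, IFIT3, OAS1, OAS2, OASL, IFI27, DDX60 and UBA7 transcripts made up the 9. Of all genes listed, 44.7% were at 1 FPKM or more in every library.

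**Figure D1:**
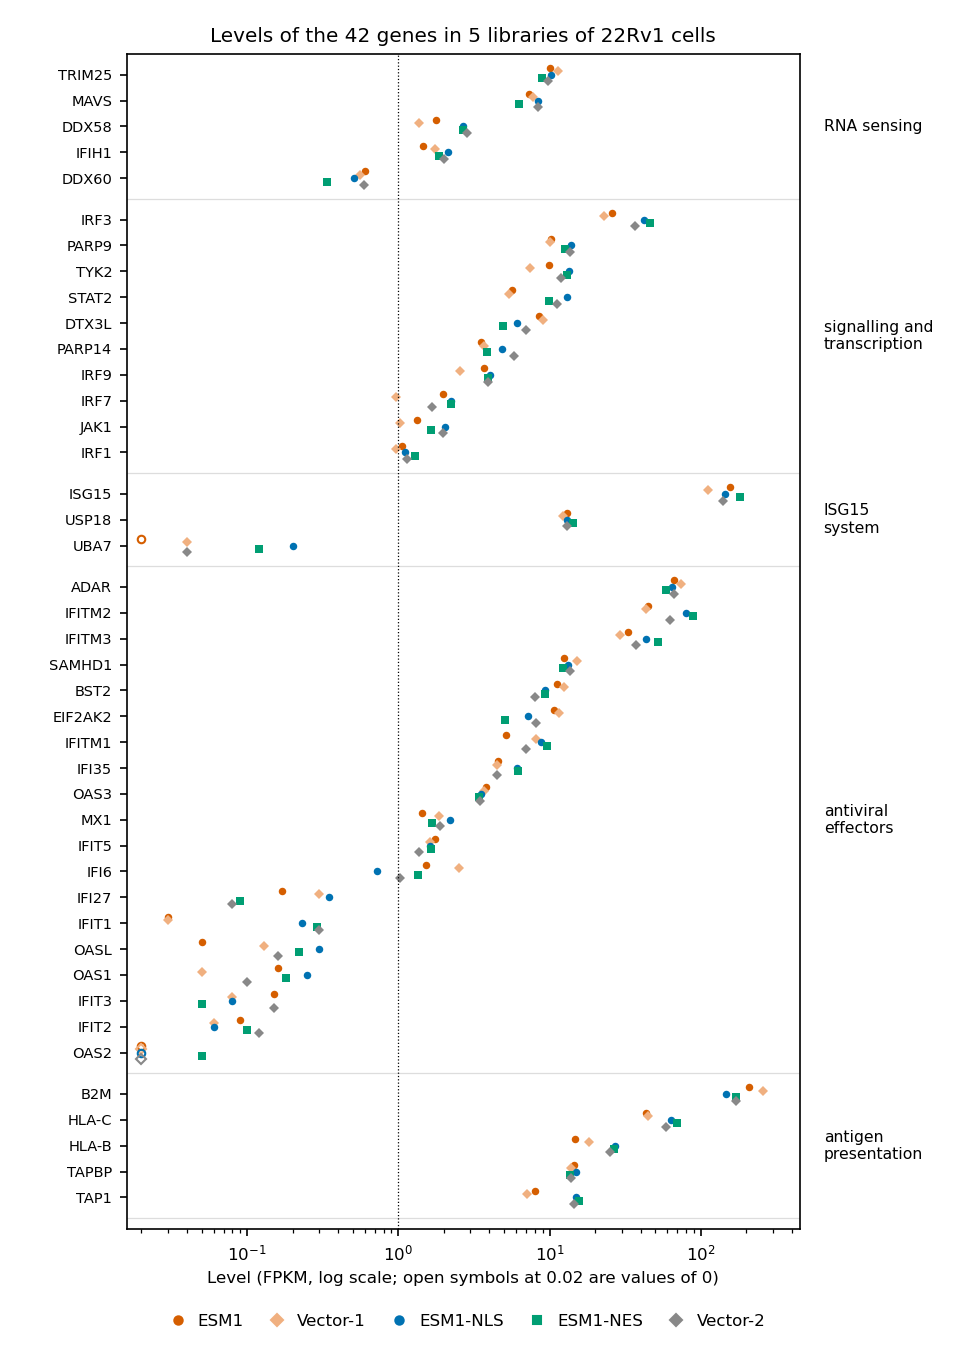
Level of each of the 42 genes (FPKM, log scale) in the 5 libraries, grouped by role and ordered by mean level, with 1 point per library and a dotted line at 1 FPKM. ISG15 and B2M lie above 100 FPKM in every library, whereas 7 antiviral effectors, DDX60 and UBA7 lie below 1 FPKM.

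No interferon transcript was measurable beyond traces. Of 21 ligand genes in the tables, 18 were listed at 0 in all 5 libraries, among them IFNB1 and every IFNA gene. The remaining ligands reached at most 0.10 FPKM, in IFNL3. Receptors were present instead. All 6 receptor subunits were above 1 FPKM in every library, with sums between 73.6 and 78.6 FPKM. IFNAR1, a subunit of the type I receptor, was at 15.68 FPKM in ESM1 against 16.60 FPKM in Vector-1, and at 10.32 FPKM with the NLS form and 9.84 FPKM with the NES form, against 12.69 FPKM in Vector-2. IFNGR1, the ligand-binding subunit of the interferon gamma receptor, lay between 16.41 and 19.60 FPKM. The cells thus held transcripts of the receptors and hardly any of the ligands.

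Among sensors, the branch of DDX58, IFIH1 and MAVS was transcribed and the DNA branch hardly at all. Of the other sensing genes, TLR3 and TLR7 stayed at 0.50 and 0.12 FPKM or less, and DHX58 lay between 0.60 and 1.64 FPKM. DDX58, which encodes RIG-I, was at 1.77 FPKM in ESM1 against 1.37 FPKM in Vector-1, and at 2.66 FPKM with the NLS form and 2.69 FPKM with the NES form, against 2.85 FPKM in Vector-2. IFIH1, which encodes the long-RNA sensor MDA5, was at 1.46 FPKM in ESM1 against 1.74 FPKM in Vector-1, and at 2.14 FPKM with the NLS form and 1.87 FPKM with the NES form, against 2.0 FPKM in Vector-2. Both sensors were therefore low in all cultures. Their mitochondrial adaptor MAVS was higher, between 6.30 and 8.44 FPKM, and TRIM25, a ubiquitin ligase of the RIG-I pathway, lay between 8.92 and 11.36 FPKM. MB21D1 and TMEM173, which encode the DNA sensor cGAS and its adaptor STING, were each listed at 0 in 4 libraries and reached at most 0.02 and 0.03 FPKM in the fifth. The kinase TBK1, which acts downstream of both branches, was the highest of 23 other sensing and signalling genes in 5 of 5 libraries, between 23.47 and 30.37 FPKM.

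Downstream of the receptor, JAK1 was the lower of the kinases of the list. It was at 1.32 FPKM in ESM1 against 1.03 FPKM in Vector-1, and at 2.04 FPKM with the NLS form and 1.64 FPKM with the NES form, against 1.99 FPKM in Vector-2. Its partner at the type I receptor, TYK2, was several times higher, at 9.92 FPKM in ESM1 against 7.46 FPKM in Vector-1, and at 13.46 FPKM with the NLS form and 13.14 FPKM with the NES form, against 11.85 FPKM in Vector-2. The kinase groups did not overlap: the highest JAK1 level was below the lowest TYK2 level. STAT2 was at 5.62 FPKM in ESM1 against 5.43 FPKM in Vector-1, and at 13.05 FPKM with the NLS form and 9.85 FPKM with the NES form, against 11.20 FPKM in Vector-2. IRF9, the DNA-binding partner of STAT2, lay between 2.57 and 4.06 FPKM. IRF3, the constitutive interferon regulatory factor, was the highest factor at 22.95 to 46.26 FPKM, whereas IRF7 and IRF1, which interferon induces, stayed at 2.23 and 1.28 FPKM or less.

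ISG15 is a ubiquitin-like protein that interferon induces and that is joined to other proteins by the E1 enzyme UBA7, the E2 enzyme UBE2L6 and the E3 ligase HERC5, while USP18 removes it. ISG15 was at 155.68 FPKM in ESM1 against 111.66 FPKM in Vector-1, and at 143.77 FPKM with the NLS form and 180.84 FPKM with the NES form, against 139.64 FPKM in Vector-2. The gene was thus high in every culture. ESM1-NLS and Vector-2 differed within counting error, and their order turned with a correction for length and GC content, in which the median difference of genes alike in both is taken off. UBA7 was at 0 FPKM in ESM1 against 0.04 FPKM in Vector-1, and at 0.20 FPKM with the NLS form and 0.12 FPKM with the NES form, against 0.04 FPKM in Vector-2. These levels rest on 13 reads with the NLS form and 7 with the NES form, against 3 in Vector-2. ISG15 was therefore abundant in cells with only traces of the transcript of its activating enzyme. UBE2L6, chosen after its values were seen, measured 0.43 FPKM in ESM1 against 1.12 FPKM in Vector-1, and between 1.69 and 1.77 FPKM in the other table. HERC5 was at 0.99 FPKM or less. USP18 was at 12.20 to 14.22 FPKM, and its reads may be shared with the near-identical copy USP41, which was not tested. Its expected counts were whole numbers, at 515 with the NLS form, 514 with the NES form and 621 in Vector-2.

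The antiviral effectors fell into a transcribed and a nearly silent set, and families were divided between them. ADAR, an RNA editing enzyme, was the highest effector at 58.71 to 74.03 FPKM. IFITM2 and IFITM3, which block viral fusion, lay between 43.62 and 88.52 FPKM and between 29.42 and 52.15 FPKM, and IFITM1 between 5.19 and 9.69 FPKM. The IFITM genes are close copies on chromosome 11, and 3 of 3 IFITM3 and IFITM1 counts were not whole numbers in the table that gives counts, so their separate levels are estimates. In the IFIT family, whose proteins bind viral RNA, IFIT5 lay between 1.38 and 1.75 FPKM, against at most 0.30 FPKM for IFIT1, 0.12 FPKM for IFIT2 and 0.15 FPKM for IFIT3. Among the 2-5A synthetase genes OAS3 lay between 3.42 and 3.81 FPKM, while OAS1 and OASL stayed at 0.25 and 0.30 FPKM or less. OAS2 was listed at 0 in 4 libraries and rested on 2 reads in ESM1-NES. MX1, a dynamin-like GTPase, was between 1.43 and 2.20 FPKM, SAMHD1, which depletes nucleotides, between 12.30 and 15.25 FPKM, and BST2, a tether of budding virus, between 8.04 and 12.38 FPKM.

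All 5 presentation genes of the list were transcribed. B2M, the invariant light chain, was at 208.64 FPKM in ESM1 against 259.71 FPKM in Vector-1, and at 145.93 FPKM with the NLS form and 171.97 FPKM with the NES form, against 171.73 FPKM in Vector-2. HLA-C lay between 43.59 and 69.31 FPKM and HLA-B between 14.76 and 26.91 FPKM. TAP1, a subunit of the peptide transporter, lay between 7.15 and 15.56 FPKM, and TAPBP, which bridges transporter and class I molecule, between 13.67 and 15.00 FPKM. B2M was above every heavy chain gene in each library. The HLA genes vary between people and resemble each other, and their expected counts were not whole, so their levels depend on how reads were assigned. NLRC5, the activator of class I genes, stayed at 0.29 FPKM or less, and the immunoproteasome gene PSMB9 between 2.03 and 3.46 FPKM (both named after their values were seen). Outside the list HLA-F and ERAP2 stayed under 1 FPKM, and HLA-G was listed at 0 in 4 libraries. CALR, a chaperone of class I assembly, was the highest of 24 other presentation genes in all 5 libraries, at 613.5 to 756.5 FPKM.

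Promoters of contrasting members are shown to set the interferon-stimulated response element beside the levels. The windows are RefSeq sequences of GRCh38.p14, from 250 bases before to 50 bases after the annotated start, read 5′ to 3′ on the gene's strand, and 34 of 42 members had one. Capitals mark the element's core, GAAA, any 2 bases and GAAA again, on either strand, with overlapping matches merged. ISG15 (chr1:1013247-1013546, plus strand) and B2M (chr15:44711267-44711566, plus strand) are the most abundant members, IFIT1 (chr10:89392373-89392672, plus strand) is among the nearly silent ones, and EIF2AK2 (chr2:37156931-37157230, minus strand) is the member with the largest difference in ESM1-NES.
ISG15: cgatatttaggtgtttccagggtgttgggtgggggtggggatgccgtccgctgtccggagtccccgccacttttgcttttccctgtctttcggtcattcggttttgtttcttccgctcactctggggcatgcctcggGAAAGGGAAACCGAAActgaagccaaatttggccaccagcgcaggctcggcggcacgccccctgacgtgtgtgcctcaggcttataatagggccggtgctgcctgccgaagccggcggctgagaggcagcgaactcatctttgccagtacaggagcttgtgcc
B2M: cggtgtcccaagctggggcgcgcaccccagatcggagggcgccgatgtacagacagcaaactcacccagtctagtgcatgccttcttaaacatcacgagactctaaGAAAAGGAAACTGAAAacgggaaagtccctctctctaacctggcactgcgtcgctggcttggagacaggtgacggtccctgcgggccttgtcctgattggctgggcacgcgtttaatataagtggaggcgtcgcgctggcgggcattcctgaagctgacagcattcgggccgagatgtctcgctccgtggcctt
IFIT1: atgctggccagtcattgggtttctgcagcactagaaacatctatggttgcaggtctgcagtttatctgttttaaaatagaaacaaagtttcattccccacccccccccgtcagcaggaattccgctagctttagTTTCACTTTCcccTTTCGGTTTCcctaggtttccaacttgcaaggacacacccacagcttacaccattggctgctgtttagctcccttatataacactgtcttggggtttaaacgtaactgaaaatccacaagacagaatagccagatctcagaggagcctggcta
EIF2AK2: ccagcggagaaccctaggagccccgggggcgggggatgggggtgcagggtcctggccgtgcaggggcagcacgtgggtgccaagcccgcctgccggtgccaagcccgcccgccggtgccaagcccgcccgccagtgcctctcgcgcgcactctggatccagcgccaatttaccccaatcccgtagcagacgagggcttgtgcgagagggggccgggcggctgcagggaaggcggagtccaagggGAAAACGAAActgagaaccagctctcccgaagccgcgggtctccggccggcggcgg

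The matches start 113 and 107 bases before the start in ISG15, 144 and 138 bases before it in B2M, 116 and 103 bases before it in IFIT1 and 6 bases before it in EIF2AK2. The core was found in 20 of 34 members, or 58.8%, against 4.38% of 27305 genes with such a window. Members that hold it spanned 0.03 to 259.7 FPKM, with 4 of 20 under 1 FPKM and 15 of 20 at 1 FPKM or more in every library. Those without it spanned 0.05 to 74.03 FPKM, with 1 of 14 under 1 FPKM and 12 of 14 at 1 FPKM or more in every library. ISG15 and IFIT1 thus share paired cores at similar distances and stand at opposite ends of the range of levels. No window was available for IRF3, IRF7, UBA7, USP18, IFIT2, IFITM2, OAS2 and OASL. A match is a string of letters and does not show that a factor binds there.

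ESM1 against Vector-1 asks what the form without an added signal does, and interferon genes differed little as a group. Differences are given as log2(FPKM + 1) of the form minus that of its vector, for genes whose mean over the pair was at least 1 FPKM. Limits of 1.5-fold and 2-fold apply to FPKM + 1 throughout. For a low gene the plain ratio of FPKM can pass a limit that this difference does not reach. Of 33 members measured, 18 were above 0, or 54.5%, against 52.8% of 12296 genes, and their median was 0.02 against 0.01 for all genes. IRF7, a regulator that interferon induces, was the only member at least 1.5-fold higher, against 1.19% of genes, and 0 members were at least 1.5-fold lower, against 0.325%. On FPKM + 1, 0 members reached 2-fold in either direction, against 0.285% of genes. IRF7 was at 1.98 FPKM in ESM1 against 0.97 FPKM in Vector-1, which gives a difference of 0.60 and a plain ratio of FPKM of 2.04. Its exact 95% interval for counting error was 1.27 to 3.35, on 53 and 28 estimated reads. IRF7 passed the limit on the mean through the ESM1 library, and it was not past 1.5-fold with a pseudocount of 5, after the correction for length and GC content, or against Vector-2.

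In signalling 8 of 10 genes were above 0 in ESM1, against 52.8% of all genes, with a median of 0.12. Of these 8, IRF7 and IRF1 (1.05 FPKM against 0.97 FPKM in Vector-1) passed the limit on the mean only through the ESM1 library. The filter thus fixed both above 0, here and in the count over all members, so no direction is read for signalling. IRF3 lay below 0 after the correction for length and GC content. IRF9 had a ratio of 1.42 (1.01 to 2.01) and TYK2 one of 1.33 (1.18 to 1.5), with intervals given in parentheses from here on. JAK1 had a ratio of 1.28 (0.938 to 1.75) and STAT2 one of 1.03 (0.892 to 1.20), so neither was separated from 1 at this depth. ISG15 was 1.39 times as high (1.28 to 1.52), and USP18 1.06 times (0.917 to 1.23). In the sensing group DDX58 had a ratio of 1.29 (0.98 to 1.71), IFIH1 0.839 (0.609 to 1.15), MAVS 0.942 (0.871 to 1.02) and TRIM25 0.883 (0.803 to 0.970).

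Of the effectors 5 of 12 and of the presentation genes 2 of 5 were above 0 in ESM1, against 52.8% of all genes, so neither group is read as having a direction. IFITM1 was at 5.19 FPKM in ESM1 against 8.15 FPKM in Vector-1, which gives a ratio of 0.637 (0.433 to 0.926), and a difference of -0.56 on the log2(FPKM + 1) scale, short of the 1.5-fold limit. IFI6, a mitochondrial survival protein, was at 1.53 FPKM in ESM1 against 2.51 FPKM in Vector-1, with a ratio of 0.610 (0.309 to 1.16). Its difference of -0.47 was short of that limit too. The neighbours of IFITM1 differed less: IFITM2 had a ratio of 1.02 (0.889 to 1.17), whose direction turned with the correction for length and GC content, and IFITM3 one of 1.13 (0.950 to 1.34). B2M reached 0.803 of the Vector-1 level (0.764 to 0.845) and HLA-B reached 0.814 of it (0.7 to 0.945). HLA-C had a ratio of 0.978 (0.894 to 1.07), TAP1 1.13 (0.954 to 1.33) and TAPBP 1.04 (0.941 to 1.15). By ratio the class I genes thus did not all lie on one side. After the correction for length and GC content HLA-B lay at a log2 difference of -0.39, B2M at -0.31 and HLA-C at -0.23. TAPBP changed sign to -0.02 with that step, and TAP1 stayed above 0 at 0.10. ADAR had a ratio of 0.901 (0.871 to 0.933) and EIF2AK2 one of 0.928 (0.832 to 1.04).

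**Figure D2:**
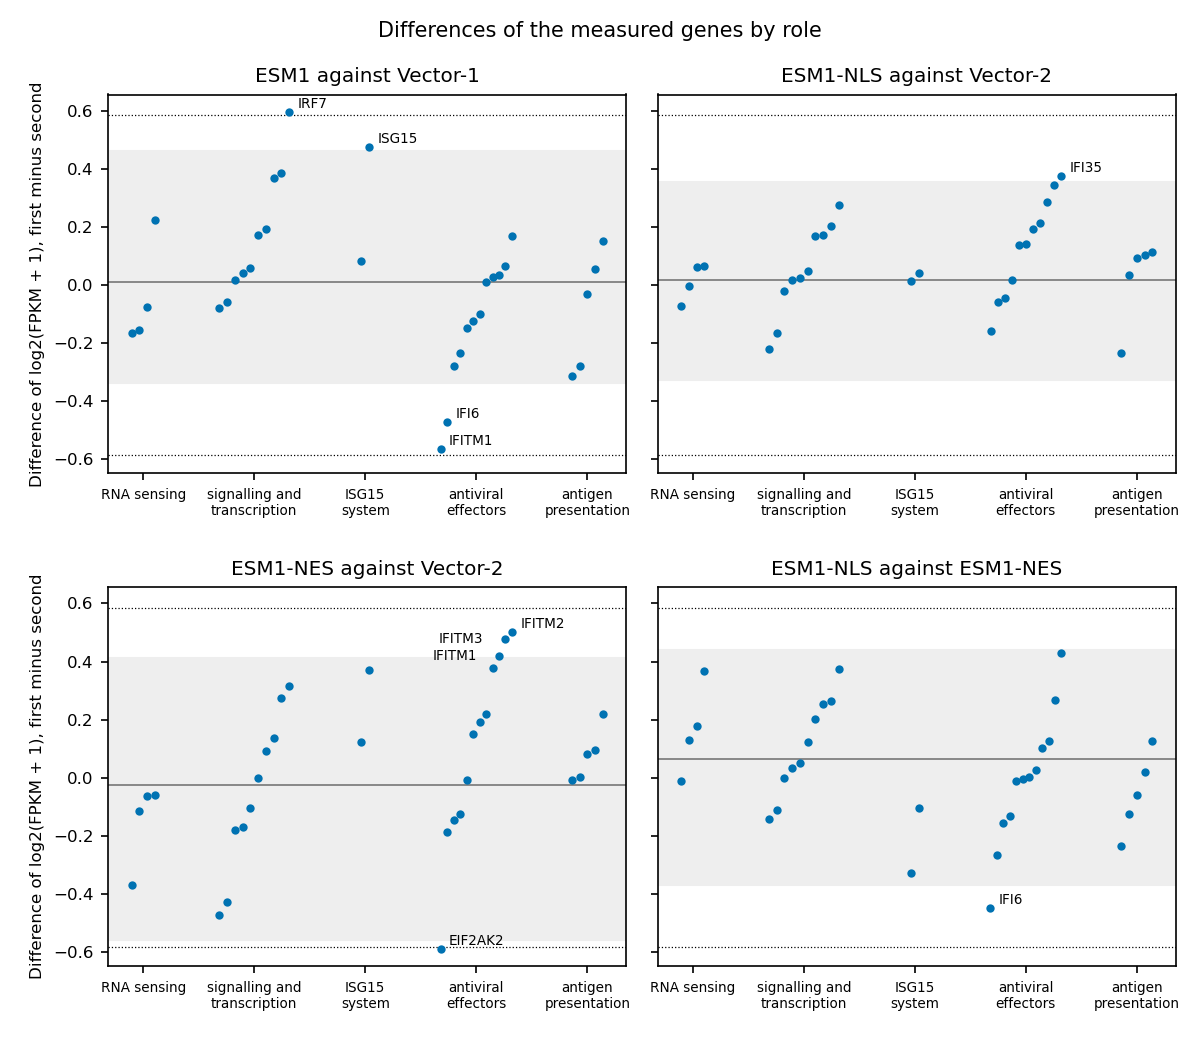
Difference of log2(FPKM + 1) for each measured gene (points), by role, in the 4 comparisons. The grey band holds the central 95% of all genes measured, the grey line is their median and dotted lines mark 1.5-fold, which IRF7 passes upwards in ESM1 and EIF2AK2 downwards in ESM1-NES.

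ESM1-NLS against Vector-2 gave the smallest range of differences among the vector comparisons, between -0.23 and 0.37 on the log2 scale. Of 32 members measured, 23 were above 0, or 71.9%, against 54.1% of 13000 genes, with a median of 0.06 against 0.02. After the correction for length and GC content 16 of 32 members were above 0, with a median of 0.01. No member was 1.5-fold higher, against 0.369% of genes, or 1.5-fold lower, against 0.5%, and none reached 2-fold in either direction, against 0.123%. Effectors had 8 of 11 above 0, against 54.1% of all genes. IFI35, which interacts with NMI, was at 6.13 FPKM with the NLS form, against 4.5 FPKM in Vector-2, which gives a ratio of 1.36 (1.07 to 1.74). IFITM2 had a ratio of 1.27 (1.17 to 1.39), IFITM3 1.16 (1.03 to 1.32) and IFITM1 1.25 (0.953 to 1.64), so all 3 close copies lay on the same side.

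In signalling, STAT2 had a ratio of 1.17 in ESM1-NLS (1.07 to 1.26), TYK2 1.14 (1.05 to 1.23) and IRF3 1.13 (1.05 to 1.22). JAK1 had one of 1.03 (0.846 to 1.24), IRF9 1.04 (0.819 to 1.33) and IRF7 1.34 (0.970 to 1.84). With the correction for length and GC content TYK2 and IRF9 changed sign, TYK2 to just below 0 and IRF9 to a log2 difference of -0.11. PARP14 and DTX3L, an ADP-ribosyltransferase and a ubiquitin ligase, lay below 1 at 0.834 (0.758 to 0.917) and 0.876 (0.794 to 0.967). ISG15 had a ratio of 1.03 (0.965 to 1.10) and USP18 one of 1.01 (0.898 to 1.14), and both changed sign with the same correction. The sensors DDX58 at 0.933 (0.788 to 1.10) and IFIH1 at 1.07 (0.854 to 1.34), and the adaptor MAVS at 0.996 (0.938 to 1.06), were not separated from 1. UBA7 had a ratio of 5.00, with an interval of 1.37 to 27.4 on 13 against 3 reads.

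Among presentation genes in ESM1-NLS, B2M had a ratio of 0.850 to Vector-2 (0.808 to 0.893). HLA-B had a ratio of 1.08 (0.978 to 1.19), HLA-C 1.07 (1.0 to 1.14), TAP1 1.03 (0.934 to 1.13) and TAPBP 1.09 (1.0 to 1.18). After the correction for length and GC content HLA-C, TAP1 and TAPBP lay below 0 as well, at log2 differences of -0.02, -0.10 and -0.06, beside -0.14 for B2M. The light chain gene thus lay below its vector in ESM1 and in ESM1-NLS. HLA-B lay below Vector-1 in ESM1 and above Vector-2 in ESM1-NLS, within counting error there, and whether these differences differ was not tested.

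**Figure D3:**
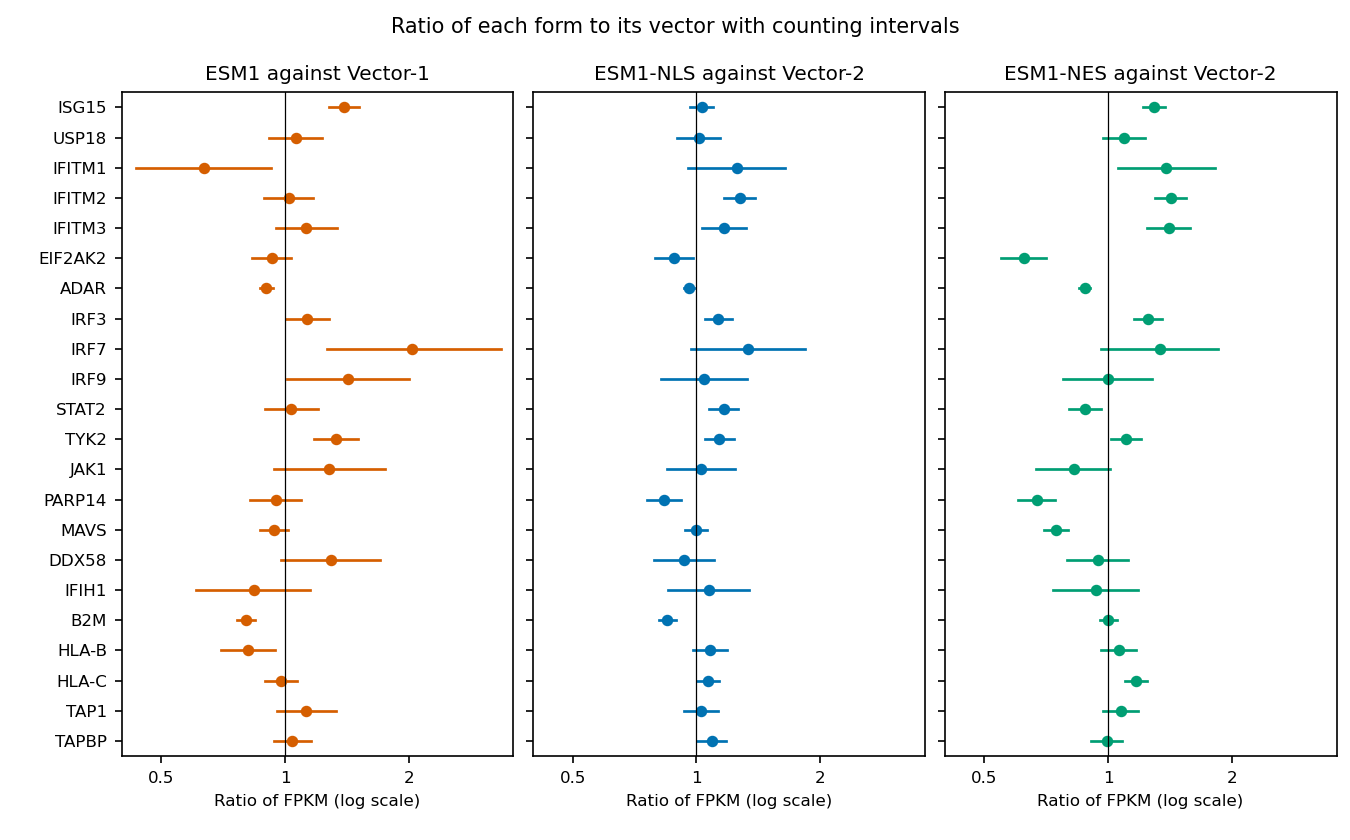
Ratio of FPKM in each form to that in its vector (log scale) for 22 genes named in the text, with exact 95% intervals that cover counting error only. ISG15 lies above 1 in ESM1 at 1.39 and in ESM1-NES at 1.3 but at 1.03 in ESM1-NLS, and B2M lies below 1 in ESM1 at 0.803 and in ESM1-NLS at 0.850 but at 1.0 in ESM1-NES.

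In ESM1-NES against Vector-2 the members ranged between -0.59 and 0.50 on the log2 scale and parted by transcript length. Of 33 members measured, 17 were above 0, or 51.5%, against 45.8% of 12902 genes, with a median of 0.00 against -0.03. Above 1.5-fold there were 0 members, against 0.388% of genes, and below it 1, against 2.16%. None reached 2-fold in either direction, against 0.225% of genes. EIF2AK2, which encodes the RNA-activated kinase PKR, was that member, at 5.08 FPKM with the NES form, against 8.15 FPKM in Vector-2, which gives a ratio of 0.623 (0.550 to 0.705). Its level in ESM1-NLS was between these, at 7.19 FPKM. EIF2AK2 was not past 1.5-fold with a pseudocount of 5 or after the correction for length and GC content. With a median-ratio size factor its ratio was 0.635, and its log2(FPKM + 1) difference fell just short of the limit.

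The genes of the PARP9, DTX3L and PARP14 group on chromosome 3 were below their Vector-2 level in ESM1-NES to different degrees. PARP14 was at 3.88 FPKM with the NES form, against 5.78 FPKM in Vector-2, with a ratio of 0.671 (0.605 to 0.745), and DTX3L at 4.90 FPKM with the NES form, against 6.95 FPKM in Vector-2, with a ratio of 0.705 (0.632 to 0.785). PARP9, which pairs with DTX3L, had a ratio of 0.925 (0.844 to 1.01), and its log2 difference changed sign to 0.11 after the correction for length and GC content. MAVS reached 0.746 of the Vector-2 level (0.698 to 0.798), and DDX60, a helicase under 1 FPKM and so outside the counts, had a ratio of 0.576 (0.383 to 0.853) on 38 against 87 reads. All 4 sensing genes measured lay below 0, although DDX58, IFIH1 and TRIM25 changed sign with that correction. Of all genes 45.8% were above 0, and of those of 4000 to 8000 bases, like DDX58 and TRIM25, 18.1% were, so no direction is read for sensing. STAT2 had a ratio of 0.879 (0.804 to 0.962), JAK1 0.824 (0.668 to 1.01) and ADAR 0.877 (0.851 to 0.904), and JAK1 and ADAR changed sign with that correction too.

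Shorter transcripts lay on the other side in ESM1-NES. IFITM2 was at 88.52 FPKM with the NES form, against 62.29 FPKM in Vector-2, with a ratio of 1.42 (1.3 to 1.55), IFITM3 at 1.40 (1.25 to 1.58) and IFITM1 at 1.39 (1.06 to 1.82). ISG15 was 1.3 times as high (1.22 to 1.38), IRF3 1.25 times (1.16 to 1.35) and IFI35 1.37 times (1.06 to 1.75). With the correction for length and GC content the log2 difference of IRF3 was 0.02 in place of 0.31 and that of IFI35 0.11 in place of 0.38. HLA-C had a ratio of 1.17 (1.10 to 1.24), HLA-B 1.06 (0.962 to 1.17) and B2M 1.0 (0.954 to 1.05). IRF7 had a ratio of 1.34 (0.963 to 1.85) and IRF9 one of 1.0 (0.778 to 1.28).

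Effective length and difference moved together in ESM1-NES, in these genes and in the whole table. Spearman's rank correlation between them was -0.81 over the 33 members and -0.57 over 12902 genes, which share libraries and do not count as replicates. Between GC content and difference it was 0.66 over the members and 0.64 over 12261 genes. All 7 measured members of up to 1000 bases were above 0, and 1 of 10 members of 4000 to 8000 bases was, against 79.5% and 18.1% of genes of these lengths. IFITM2 has an effective length of 654 bases, ISG15 of 590, EIF2AK2 of 4053, PARP14 of 7654 and MAVS of 11713. After the median of genes in the same bin of length and GC content was taken off, the log2 difference of EIF2AK2 was -0.34 in place of -0.59, that of PARP14 -0.13 in place of -0.47, that of IFITM2 0.23 in place of 0.50 and that of ISG15 0.07 in place of 0.37. HLA-B and HLA-C changed sign with that step, to -0.18 and -0.08, and HLA-B with TPM too.

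In the other comparisons with a vector length and difference were less tied among the members. The rank correlation with length was -0.53 in ESM1-NLS over 32 members and 0.03 in ESM1 over 33, against -0.16 and -0.27 over all genes. With GC content it was 0.63 over the members in ESM1-NLS and 0.36 in ESM1, against 0.53 and 0.32 over all genes. In ESM1 the same step left ISG15 at 0.28 in place of 0.48, IRF7 at 0.44 in place of 0.60 and B2M at -0.31, and in ESM1-NLS it left B2M at -0.14 in place of -0.23.

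**Figure D4:**
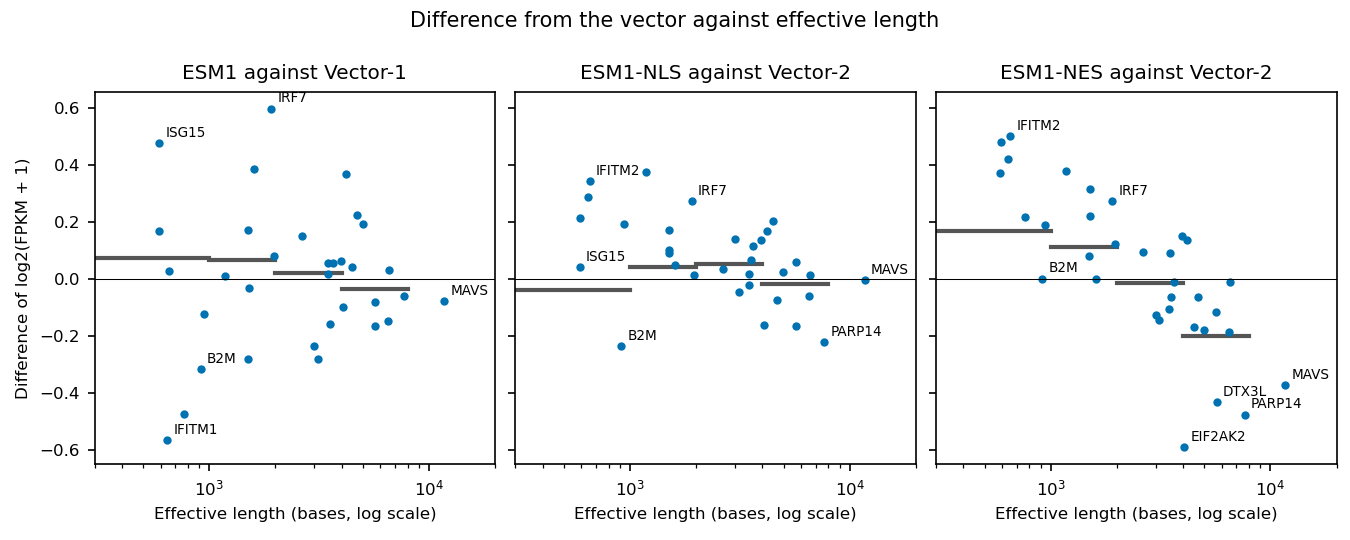
Difference of log2(FPKM + 1) from the vector against effective length (bases, log scale) for the measured members (points), with the median of all genes per length class up to 8000 bases as grey bars. In ESM1-NES the members of up to 1000 bases lie above 0 and most over 4000 bases below it, as do the medians of all genes at 0.17 and -0.20.

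The NLS form was set against the NES form within 1 table. Of 33 members measured, 18 were above 0, or 54.5%, against 62.2% of 12915 genes, with a median of 0.02 against 0.06. None was 1.5-fold higher, against 0.774% of genes, or 1.5-fold lower, against 0.356%, and none reached 2-fold in either direction, against 0.139%. EIF2AK2 had the largest positive difference, with a ratio of 1.42 (1.24 to 1.61). MAVS had a ratio of 1.33 (1.25 to 1.43) and STAT2 one of 1.32 (1.21 to 1.45). ISG15 was at 0.795 of its ESM1-NES level in ESM1-NLS (0.745 to 0.849) and B2M at 0.849 (0.805 to 0.895). IFI6 had the largest negative difference, -0.45 on the log2(FPKM + 1) scale and so short of the 1.5-fold limit. It was at 0.72 FPKM with the NLS form, against 1.35 FPKM with the NES form, on 11 against 19 reads. Its plain ratio was 0.533 (0.229 to 1.18), and it passed the limit on the mean through the ESM1-NES library. The rank correlation with effective length was 0.77 over the members and 0.57 over all genes here.

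Listed genes of the pathway outside the 42 were counted if they averaged 1 FPKM or more over a pair. On FPKM + 1, none of these was 1.5-fold higher or lower, and the counts below use that scale. By plain ratio some passed 1.5-fold, among them PSMB9 in ESM1, with 0.623 (0.377 to 1.01). JAK2 in ESM1-NES was another, with 0.655 (0.559 to 0.766). In ESM1, 0 of 13 other sensing and signalling genes, 0 of 15 other interferon-stimulated genes and 0 of 15 other presentation genes were 1.5-fold higher or lower, with medians of 0.02, 0.03 and 0.06. In ESM1-NLS the counts were 0 of 14, 0 of 15 and 0 of 15, with medians of 0.05, 0.00 and 0.07. In ESM1-NES they were 0 of 14, 0 of 16 and 0 of 15, with medians of -0.04, -0.09 and 0.19. Of all genes, 1.19% were 1.5-fold higher and 0.325% lower in ESM1, with 0.369% and 0.5% in ESM1-NLS and 0.388% and 2.16% in ESM1-NES. At these shares lists this short would hold hardly any such gene, so the counts of 0 do not set the pathway apart. Medians over all genes were 0.01 in ESM1, 0.02 in ESM1-NLS and -0.03 in ESM1-NES. The 0.19 of the other presentation genes in ESM1-NES lay furthest from these, and its cause was not tested. The receptors had medians of -0.02 in ESM1, 0.05 in ESM1-NLS and 0.00 in ESM1-NES. CXCL9, a chemokine, and RTP4 were listed at 0 in all libraries, and the most abundant of the other interferon-stimulated genes were PNPT1 at 22.17 to 33.56 FPKM and LAP3 at 26.86 to 28.65 FPKM. ESM1-NLS and ESM1-NES were both compared with the same Vector-2 library.

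Some scarcer genes of these lists, named after their values were seen, had ratios whose counting interval did not hold 1. They come from 23 other sensing and signalling genes, 42 other interferon-stimulated genes and 24 other presentation genes. The share of such intervals over the lists and over all genes was not computed, so these ratios are not read as results. In ESM1-NLS HLA-DRA, a class II heavy chain, was at 1.20 FPKM against 0.48 FPKM in Vector-2, or 2.5 times as high (1.28 to 5.12), and GBP1, a GTPase that interferon gamma induces, was 2.41 times as high (1.28 to 4.72). IFI16 had a ratio of 4.6 (1.24 to 25.4) and RSAD2 one of 0.612 (0.374 to 0.98) there. CD74, the class II invariant chain, rested on 28 reads in ESM1-NLS, at 0.99 FPKM, and was listed at 0 in Vector-2. The summed leukocyte markers, HLA-DRA among them, were highest in the same library, and their part in these values was not tested. In ESM1 SOCS1, a feedback inhibitor of JAK signalling, had a ratio of 8.5 (1.14 to 377.2) on 8 against 1 reads, and CD274, which encodes PD-L1, one of 0.333 (0.0955 to 0.952). In ESM1-NES SP100 had a ratio of 1.78 (1.09 to 2.92) and ERAP2 one of 0.481 (0.228 to 0.950).

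The tables were normalised separately, so levels set across them are given without a test. ESM1 and Vector-1 both lay below the other 3 libraries in 16 of 33 members, or 48.5%, against 40.4% of 12766 genes, and above them in 6 of 33, or 18.2%, against 27.4%. These shares were not far from those of all genes. TAP1 was at 7.15 FPKM in Vector-1 and 14.5 FPKM in Vector-2, STAT2 at 5.43 and 11.20 FPKM, and JAK1 at 1.03 and 1.99 FPKM. B2M at 259.71 and 171.73 FPKM, BST2 at 12.38 and 8.04 FPKM and EIF2AK2 at 11.58 and 8.15 FPKM lay the other way. Between the vectors STAT2, TAP1 and JAK1, picked as examples, differed by more than in any comparison of a form with its own vector. DDX58 at 1.37 and 2.85 FPKM and IFI6 at 2.51 and 1.02 FPKM were further apart, with ratios of 0.481 and 2.46. The share of all genes with such gaps was not computed, so they are not read as a trait of these genes.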

How the data were processed

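The submitters' processing notes name Trimmomatic, Bowtie2, RSEM and the build hg19, without versions or order. Whether the library kit kept strand is not stated, so overlapping and antisense genes may share reads. Of the 2 deposited tables, that of ESM1 and Vector-1 names no unit and was taken as FPKM from its values. The other, per the file headers, gives FPKM beside TPM and expected counts. Its deposited fold change and PPEE score were not used.

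The measure was the difference of log2(FPKM + 1), which understates the change of low genes, for genes averaging at least 1 FPKM over the pair. The 1.5-fold and 2-fold limits were set on this measure. Ratios of FPKM carry exact 95% conditional binomial (Clopper-Pearson) intervals on reads, for counting error only. Reads are not independent molecules, and for ESM1 and Vector-1 they were rebuilt from FPKM, effective length and the depth that brought low values closest to whole numbers. At that depth 82.0% and 81.3% of 283 values lay within 0.15 of a whole read, and the same search on the libraries with counts came within 0.546% of their sums. Expected counts were rounded for the intervals and called whole within 0.005. GC content was the median over a gene's GENCODE 29 transcripts, and effective length came from expected counts and FPKM. With 1 library a group no test across samples exists. The calculations were tested on simulated data. Python 3.11.15, numpy 2.4.6, pandas 2.3.3 and scipy 1.17.1 were used.

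Members given with values in every library were those with the largest differences per role and comparison, the highest of each role, any past 1.5-fold and a fixed set of pathway components. UBA7, UBE2L6, HERC5, NLRC5, PSMB9, JAK2, IFITM3, PARP9, DDX60, HLA-F, HLA-G and ERAP2 were named after their values were seen. So were the scarcer genes of the other lists. The members and lists were chosen with earlier results of these data known. Alternatives were other pseudocounts, filters and scalings, a correction by bins of length and GC content, members without close copies, and Vector-2 as control of ESM1.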

Additional observations from a re-analysis of the deposited data

How the results depend on the processing

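No paired analysis was possible because each group has 1 library, and no replicate could be left out. Median differences of the members over the alternatives run ranged from -0.07 (Vector-2 as control) to 0.03 in ESM1, 0.01 (bins of length and GC content, where 16 of 32 members were above 0 in place of 23) to 0.06 in ESM1-NLS, -0.11 (TPM) to 0.09 in ESM1-NES and -0.05 to 0.15 in ESM1-NLS against ESM1-NES. TPM moves the median of all genes by -0.12 in ESM1-NES and by 0.13 in the comparison of the tagged forms.

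In ESM1 the count of 1 member 1.5-fold higher, IRF7, became 0 with a pseudocount of 5, with a mean of 5 FPKM or more, with bins of length and GC content and with Vector-2 as control. The count of 0 lower became 2, IFI6 and IFITM1, with a pseudocount of 0.1, with the bins and with values scaled to 1 common sum, and 3, HLA-B, STAT2 and TAP1, with Vector-2 as control. Members above 0 numbered 10 of 21 with a mean of 5 FPKM or more, where fewer genes are tested. In ESM1-NES the count of 1 lower, EIF2AK2, became 0 with a pseudocount of 5, a median-ratio size factor (a ratio of 0.635 in place of 0.623) or the bins, and 2 with TPM, which added PARP14. In ESM1-NLS against ESM1-NES the count of 0 lower became 1, IFI6, with a pseudocount of 0.1. Where not stated, the cause was not tested. Genes under 1 FPKM, such as UBA7 and the IFIT genes, rest on few reads and have wide intervals.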
